A study of Mus musculus with 40 samples.

Results

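Gucy2c encodes guanylyl cyclase C, a receptor in the cell membrane that makes cyclic GMP (cGMP). The gene was chosen from measured values: of the 21500 protein-coding genes in the deposited count table, 13993 had enough reads to be tested, and Gucy2c had the largest fitted rise among them in livers of BLT1i-treated mice. Its own difference between the groups is therefore given as a description, with no test. The gene is listed as ENSMUSG00000042638 and lies on the minus strand of chromosome 6 in the GENCODE M21 annotation.

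In the intestine, where the gene is best known, the hormones guanylin and uroguanylin and the heat-stable toxin of enterotoxigenic bacteria bind the receptor on the luminal face of epithelial cells. The cGMP it makes activates the kinase encoded by Prkg2, which opens the chloride channel encoded by Cftr and slows the sodium and proton exchanger encoded by Slc9a3, so that fluid moves into the gut. In the liver the receptor is best described in the rat, around birth and during regeneration. The transcription factors HNF4A and CDX2 are known to act at its promoter in intestinal cells.

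The data are RNA sequencing of liver from 20 male C57BL/6J mice, 10 in each group. In the BLT1i group, mice were given CDAA-HFD, a choline-deficient diet of defined amino acids with 60% of its energy from fat and 0.1% methionine, at 8 weeks of age, and after 4 weeks received the same diet with BLT1i at 90 mg/kg for 8 weeks. The CDAA-HFD group stayed on the diet without the agent. Livers of both groups were collected when the mice were 20 weeks old. BLT1i is not spelled out in the labels. Every mouse had the choline-deficient diet, and mice on a normal diet were not analysed here. Mouse numbers run in separate blocks (71 to 80 in the BLT1i group and 31 to 40 in the CDAA-HFD group), so that the treatment and anything that followed the order of handling cannot be told apart. Total counts ran between 18467060 and 26078285 per BLT1i mouse and between 20994073 and 27456678 per CDAA-HFD mouse. Marker genes of hepatocytes were abundant in every mouse, with summed levels of 71870 to 87016 CPM (counts scaled to a library of 1000000) in BLT1i mice and 71529 to 88489 CPM in CDAA-HFD mice, as the labelled tissue would have.

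Gucy2c RNA was present at a low level in all BLT1i livers and was close to the limit of detection in CDAA-HFD livers. The lowest, median and highest read counts were 50, 58 and 127 in BLT1i mice, against 2, 5 and 13 in CDAA-HFD mice. Scaled to library size, the lowest, median and highest levels were 2.02, 2.73 and 5.64 CPM in BLT1i mice, against 0.0871, 0.218 and 0.575 CPM in CDAA-HFD mice. The groups did not overlap: the lowest BLT1i mouse was 3.51-fold above the highest CDAA-HFD mouse. The mean was 3.05 ± 1.02 CPM in BLT1i mice and 0.244 ± 0.140 CPM in CDAA-HFD mice (SD, n = 10 each), a fitted log2 fold change of 3.62 ± 0.24 (SE), or 12.3-fold. In liver as a whole, a change in the number of cells that carry the RNA and a change in RNA per cell cannot be told apart.

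**Figure D1:**
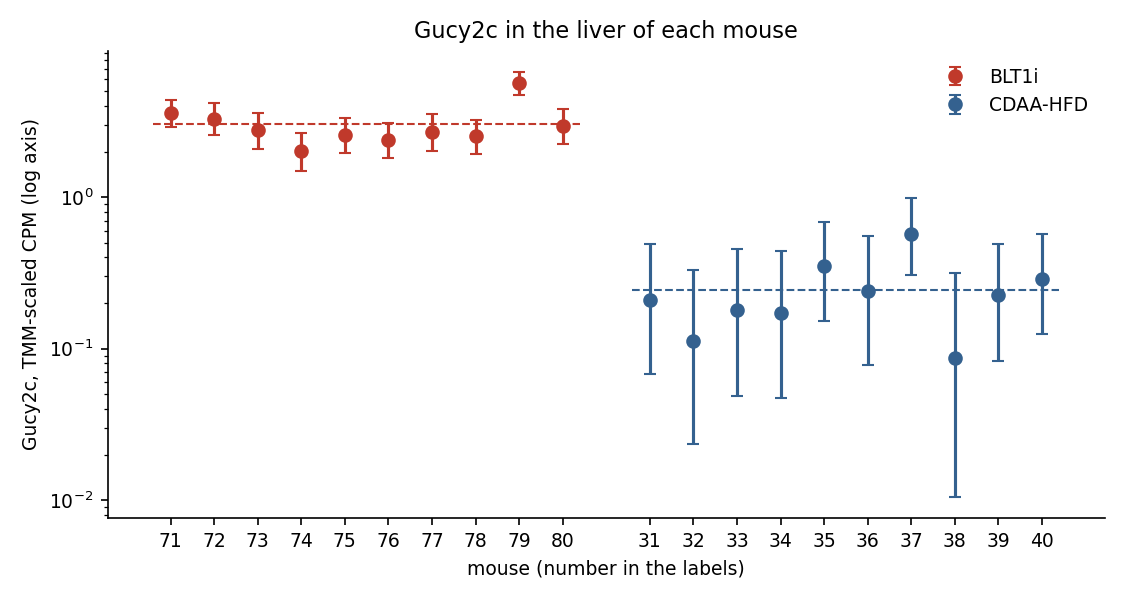
Gucy2c level in each liver, in CPM on a log axis, with BLT1i mice on the left and CDAA-HFD mice on the right. Points are mice, vertical lines are exact Poisson intervals of the read count at 95%, which cover counting error only, and dashed lines are group means. All BLT1i mice lie above all CDAA-HFD mice, and mouse 79 is the highest at 5.64 CPM.

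The level is low in absolute terms even after the rise. Divided by the gene's exon length of 3959 bases, it averaged 0.770 ± 0.256 CPM per kilobase in BLT1i mice and 0.0616 ± 0.0353 in CDAA-HFD mice. On that scale Gucy2c stood at percentile 13.2 of the 13983 tested genes of known length in BLT1i livers, and at percentile 0.300 in CDAA-HFD livers. Genes with too few reads to be tested are left out of this ranking. Gucy2c had enough reads only through the BLT1i mice, so a place near the bottom in CDAA-HFD livers was largely set by that choice of genes. In total 680 of 225608771 reads were assigned to it in the BLT1i group and 58 of 237310162 in the CDAA-HFD group. The 2 annotated transcripts hold 3956 different windows of 100 bases, the length of a read, and 0 of them occur in the annotated transcripts of another gene. Only identical windows were looked for. Copies with mismatches, or outside the annotated transcripts, would not be found this way.

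Few reads set the precision in CDAA-HFD mice. In CDAA-HFD mouse 38, with 2 reads, the level of 0.0871 CPM had an exact Poisson interval of 0.0105 to 0.315 CPM. The coefficient of variation across mice was 33.3% in BLT1i mice, where counting alone would give 12.1%, and 57.2% in CDAA-HFD mice, where counting alone would give 41.5%. The variance over mice was 7.77 times the counting variance in BLT1i mice and 1.86 times in CDAA-HFD mice. These ratios rested on the highest mouse of each group: without mouse 79 that of the BLT1i mice was 1.99, and without mouse 37 that of the CDAA-HFD mice was 0.782. Without mouse 79, the other BLT1i mice averaged 2.76 ± 0.472 CPM (SD, n = 9).

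Gucy2c stood at the head of a short run of large rises. The next by fitted fold change, among called genes that reached a mean of 1 CPM in BLT1i or CDAA-HFD mice, was Duox1, which encodes a hydrogen peroxide-making oxidase. Duox1 averaged 1.12 ± 0.231 CPM in BLT1i mice and 0.179 ± 0.128 CPM in CDAA-HFD mice, a log2 fold change of 2.60 ± 0.27. After it came Cyp4a14, a fatty acid hydroxylase induced through PPAR-alpha, at 5.08-fold, and Cyp2c29 and Cyp2c55, drug-metabolising cytochromes P450, at 4.82-fold and 3.80-fold. Ppp1r3g, a glycogen-targeting phosphatase subunit, was 3.56-fold higher, but its groups overlapped. By the ratio of the lowest BLT1i mouse to the highest CDAA-HFD mouse, Gucy2c was also the first, at 3.51, ahead of Duox1 at 2.36, Cyp2c55 at 2.03 and Cyp2c29 at 1.99. Among the 13993 genes, 59 (0.422%) had every BLT1i mouse above every CDAA-HFD mouse, and 3 (0.0214%) had every BLT1i mouse below.

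Of 67 other genes of the cGMP pathway listed, from ligands to targets, 65 were in the table and 39 were tested. By edgeR's quasi-likelihood test with Benjamini-Hochberg adjustment over all tested genes, 2 were higher in BLT1i mice, 1 was lower and 36 did not pass. Over all 13993 genes, 788 (5.63%) passed the adjusted threshold of 0.05, 511 (3.65%) of them higher and 277 (1.98%) lower. The share of pathway genes called was thus near that of all genes. The median log2 fold change was 0.00 over the 39 pathway genes and -0.01 over all tested genes.

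The ligands were near the limit of detection in both groups. Guca2a, which encodes guanylin, had 3 reads over all BLT1i mice and 8 over all CDAA-HFD mice. Guca2b, which encodes uroguanylin, had 37 reads over all BLT1i mice and 57 over all CDAA-HFD mice, with 1 to 8 per BLT1i mouse and 3 to 14 per CDAA-HFD mouse. Its groups overlapped, at 0.169 ± 0.114 CPM in BLT1i mice and 0.243 ± 0.163 CPM in CDAA-HFD mice (SD, n = 10 each). Both genes fell under the filter on low counts. In a fit without that filter Guca2b had a log2 fold change of -0.51 ± 0.38 (SE) with an adjusted p of 0.555 in edgeR. Hormone reaching the liver from the gut is not measured in these data.

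Among the other receptor guanylyl cyclases tested, Npr1, Npr2 and Gucy2g, 1 passed, beside 5.63% of all genes. Npr1, the receptor for atrial natriuretic peptide, was 20.9, 24.6 and 27.4 CPM in the lowest, median and highest BLT1i mouse, against 16.7, 20.0 and 22.9 CPM in the CDAA-HFD mice. The groups overlapped, with a log2 fold change of 0.26 ± 0.05 (SE) and an adjusted p of 0.00457 in edgeR. Npr2, the receptor for C-type natriuretic peptide, averaged 63.0 ± 6.52 CPM in BLT1i mice and 58.2 ± 5.59 CPM in CDAA-HFD mice and did not pass (adjusted p 0.304 in edgeR). Gucy2g, a receptor cyclase best known from olfactory neurons of the mouse, averaged 1.05 ± 0.294 CPM in BLT1i mice and 1.26 ± 0.268 CPM in CDAA-HFD mice and did not pass either (adjusted p 0.421 in edgeR). Per kilobase of exon, the levels in BLT1i livers were 13.5 CPM for Npr2, 5.11 for Npr1, 0.770 for Gucy2c and 0.269 for Gucy2g. In CDAA-HFD livers they were 12.5 CPM for Npr2, 4.26 for Npr1, 0.323 for Gucy2g and 0.0616 for Gucy2c, so that the order of the last 2 genes differed between the groups. The photoreceptor and olfactory cyclases Gucy2d, Gucy2e and Gucy2f were under the filter, with at most 9 reads over all BLT1i mice and 12 over all CDAA-HFD mice.

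Other sources of cGMP did not pass the test. The natriuretic peptide genes Nppb and Nppc had no reads, and Nppa had 2 in BLT1i mice and 1 in CDAA-HFD mice. Npr3, which clears natriuretic peptides, had a log2 fold change of 0.28 ± 0.15 (SE, adjusted p 0.321 in edgeR). Of the soluble guanylyl cyclase subunits and nitric oxide synthases, 5 were tested and 0 passed, beside 5.63% of all genes. Gucy1a1, a subunit of the nitric oxide receptor, differed by -0.02 ± 0.06 and Nos3, the endothelial synthase, by 0.04 ± 0.06 (log2 ± SE). Prkg1, the cGMP kinase of smooth muscle, differed by -0.03 ± 0.06 on the same scale. Prkg2, the kinase that acts after GUCY2C in the intestine, was under the filter, with 67 reads in BLT1i mice and 83 in CDAA-HFD mice.

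Of the genes that remove cGMP, Pde1a was lower and Abcc4 was higher in BLT1i mice. Pde1a encodes a phosphodiesterase switched on by calcium and calmodulin, and was the 1 of 11 tested phosphodiesterases to pass, beside 5.63% of all genes. It averaged 16.6 ± 1.37 CPM in BLT1i mice and 18.9 ± 1.20 CPM in CDAA-HFD mice, a log2 fold change of -0.18 ± 0.05 (SE) with an adjusted p of 0.0295 in edgeR. That call was lost when any 1 of CDAA-HFD mice 34 and 35 or BLT1i mice 71 and 79 was left out, with adjusted p up to 0.0624. Pde5a, the target of sildenafil, differed by -0.06 ± 0.07. Pde6c, the phosphodiesterase of cone photoreceptors, had the largest fitted difference among the tested pathway genes other than Gucy2c, at 0.60 ± 0.24 (95% interval 0.12 to 1.09), but did not pass (adjusted p 0.144 in edgeR). It averaged 1.17 ± 0.358 CPM in BLT1i mice and 0.772 ± 0.357 CPM in CDAA-HFD mice, and is named here after its values were seen. Abcc4, which encodes a pump that exports cyclic nucleotides and other organic anions, was 32.5, 35.1 and 43.7 CPM in the lowest, median and highest BLT1i mouse, against 21.5, 28.5 and 36.01 CPM in the CDAA-HFD mice. The groups overlapped, with a log2 fold change of 0.32 ± 0.07 (SE) and an adjusted p of 0.00688 in edgeR. Abcc5, a related pump for cGMP, differed by -0.04 ± 0.05. The calls for Npr1, Abcc4 and Pde1a were all lost when the mean level of immediate early genes was added to the fit as a covariate, with adjusted p of 0.100 for Npr1, 0.176 for Abcc4 and 0.163 for Pde1a. The fold changes kept their direction and their size was not reduced, while their errors grew: 0.34 ± 0.09 for Npr1, 0.41 ± 0.13 for Abcc4 and -0.28 ± 0.09 for Pde1a (log2 ± SE). Of the 17 immediate early genes tested, 11 were themselves higher in BLT1i mice, beside 3.65% of all genes. Their median log2 fold change was 0.63, beside -0.01 over all tested genes.

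**Figure D2:**
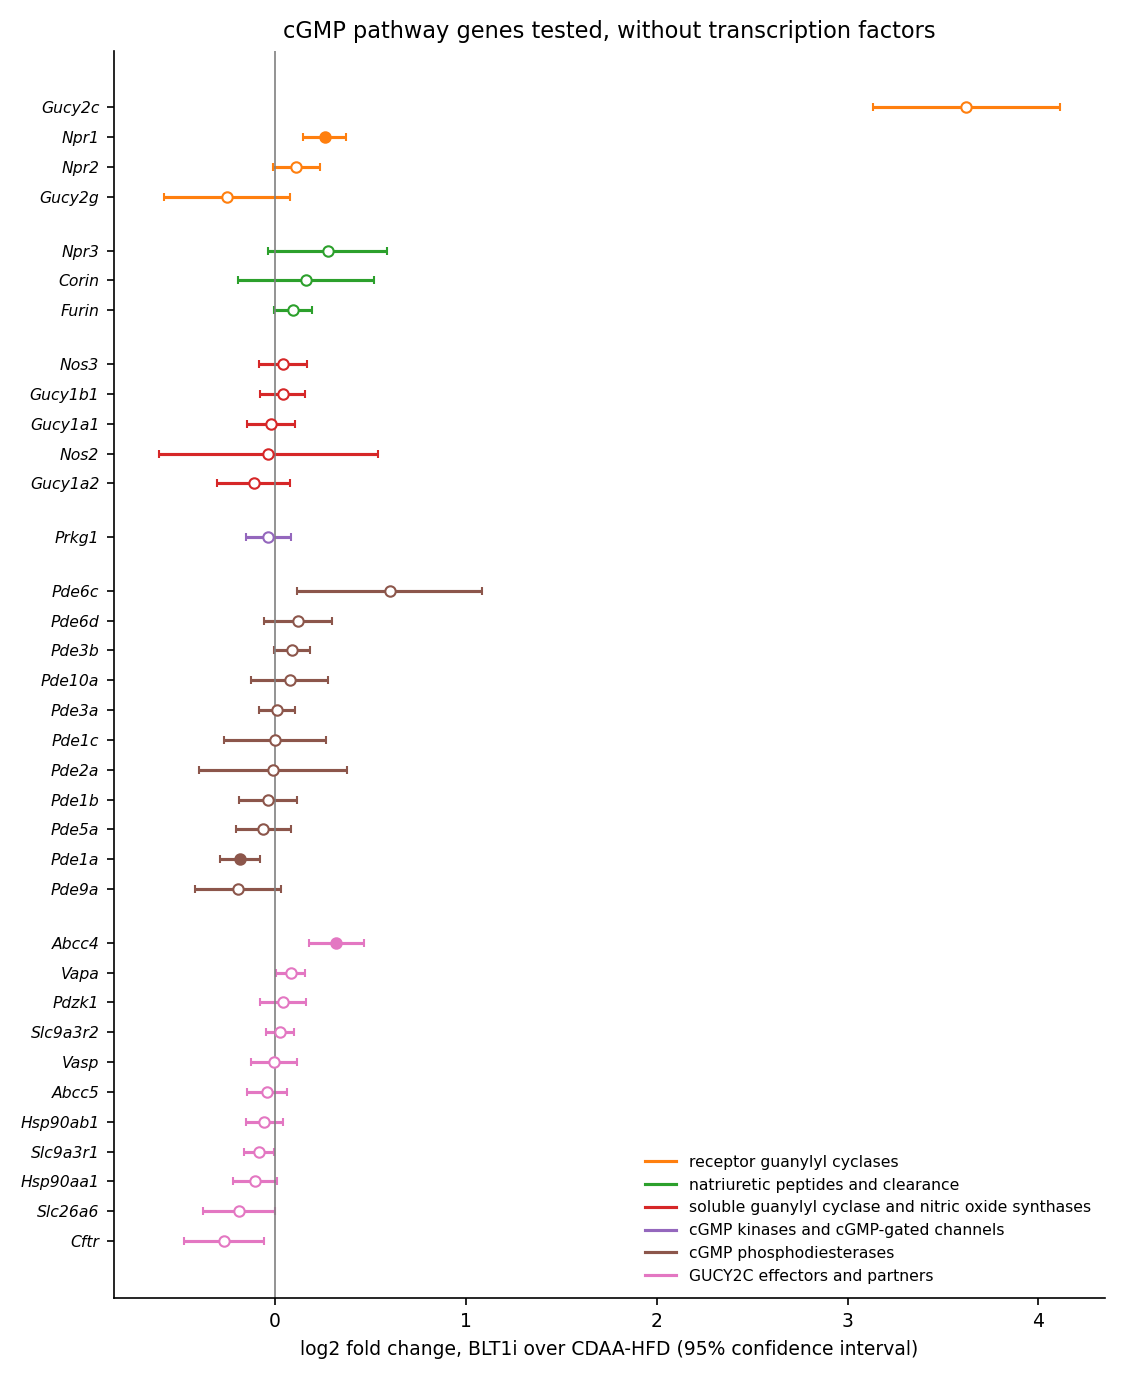
Log2 fold change, BLT1i over CDAA-HFD mice, of each tested gene of the cGMP pathway apart from the transcription factors, grouped by role and coloured by list, with 95% intervals from the edgeR fit. Filled points passed the adjusted threshold of 0.05, open points did not, and Gucy2c is drawn open because no test is used for it. Gucy2c lies at 3.62 and the other genes between -0.27 for Cftr and 0.60 for Pde6c, with Npr1, Abcc4 and Pde1a filled.

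The ion transporters that GUCY2C controls in the gut did not pass the test or were too low for it. Cftr averaged 7.29 ± 1.20 CPM in BLT1i mice and 8.80 ± 1.54 CPM in CDAA-HFD mice, with a log2 fold change of -0.27 ± 0.10 (SE) and an adjusted p of 0.128 in edgeR. Slc9a3 had 97 reads over all BLT1i mice and 29 over all CDAA-HFD mice, and Slc26a3, a chloride and bicarbonate exchanger of the colon, had 50 over all BLT1i mice and 15 over all CDAA-HFD mice. These reads sat in few mice. BLT1i mice 74, 76 and 79 had 33, 45 and 14 Slc9a3 reads and the other BLT1i mice had 0 to 3, while CDAA-HFD mice 34 and 38 had 17 and 7 and the other CDAA-HFD mice 0 to 2. The same mice had the most Slc26a3 reads in their groups. Of these 5 mice, only BLT1i mouse 79 had a high Gucy2c level for its group, at 5.64 CPM the highest of all. BLT1i mice 76 and 74 had the lowest of their group at 2.39 and 2.02 CPM. CDAA-HFD mice 34 and 38 had 0.173 and 0.0871 CPM, the second of them the lowest of all. In a fit without the filter, neither Slc9a3 (adjusted p 0.406 in edgeR) nor Slc26a3 (adjusted p 0.334) passed. With the 5 mice left out, the log2 fold change of Gucy2c was 3.41.

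**Figure D3:**
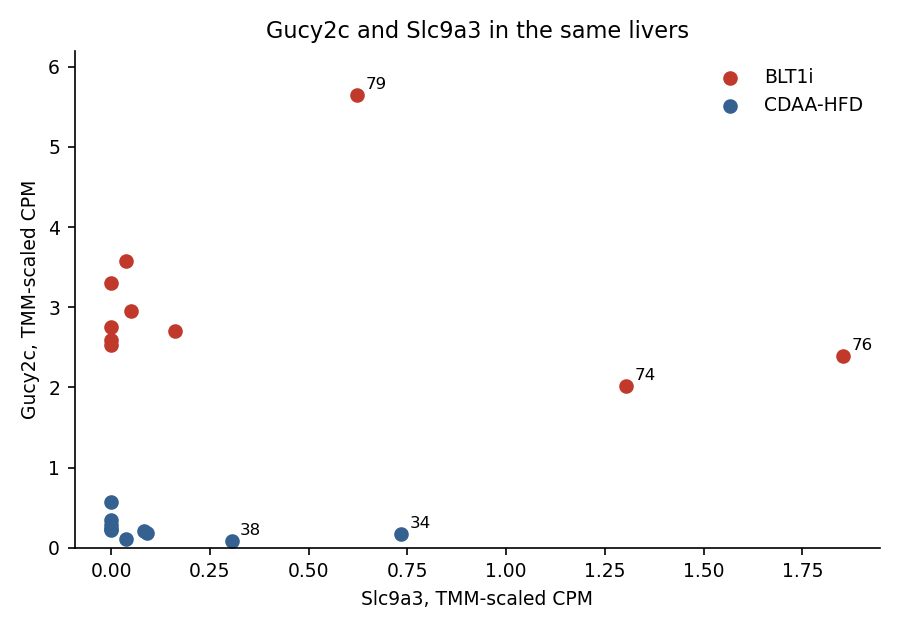
Gucy2c level (vertical axis) against Slc9a3 level (horizontal axis) in each liver, both in CPM on linear axes, with BLT1i mice in red, CDAA-HFD mice in blue and the 5 mice with most Slc9a3 reads numbered. BLT1i mice 76 and 74, at 1.85 and 1.30 CPM of Slc9a3, have 2.39 and 2.02 CPM of Gucy2c, at the lower end of their group, while mouse 79, at 0.622 CPM of Slc9a3, has the highest Gucy2c at 5.64 CPM.

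Of 18 markers of gut epithelium listed, 7 were tested and 1 was higher, beside 3.65% of all genes, with a median log2 fold change of -0.05. Sis and Defa24, defining genes of absorptive and Paneth cells, had 0 reads in every mouse, Alpi had 0 reads in BLT1i mice and 1 in CDAA-HFD mice, and Cdx2 had 1 read in each group. Other markers under the filter had more reads: Krt20, Muc2, Muc13 and Cdh17 had 85, 50, 36 and 31 over all BLT1i mice, against 72, 42, 55 and 38 over all CDAA-HFD mice. The summed level of the list was 109 to 134 CPM in BLT1i mice and 103 to 127 CPM in CDAA-HFD mice. Most of it came from Fabp2, Epcam, Lgr5 and Slc5a1. They averaged 50.8, 27.4, 19.7 and 15.1 CPM in BLT1i mice and 41.0, 28.3, 19.7 and 17.0 CPM in CDAA-HFD mice. Epcam is also on the list of cholangiocyte markers, so the sum is not a measure of gut epithelium alone. The marker that passed was Fabp2, a fatty acid binding protein, at 50.8 ± 5.59 CPM in BLT1i mice and 41.0 ± 4.82 CPM in CDAA-HFD mice (log2 fold change 0.31 ± 0.07, SE, adjusted p 0.00955 in edgeR). Among 13 cholangiocyte markers, 1 was higher, beside 3.65% of all genes, the water channel gene Aqp1 (0.23 ± 0.06, adjusted p 0.0142 in edgeR), and the median was -0.13. Summed cholangiocyte markers ran between 909 and 1239 CPM in BLT1i mice and between 974 and 1299 CPM in CDAA-HFD mice. None of the 12 hepatocyte markers passed (median 0.05). Of 10 endothelial markers 3 were higher, beside 3.65% of all genes, and the median was 0.12. These were Kdr, a receptor for vascular endothelial growth factor (0.21 ± 0.04, adjusted p 0.00344 in edgeR), the sinusoidal lectin gene Clec4g (0.23 ± 0.05, adjusted p 0.00954) and Oit3 (0.20 ± 0.06, adjusted p 0.0316). The summed level of the 10 endothelial markers was 764 to 838 CPM in BLT1i mice, highest in mouse 79, and 686 to 797 CPM in CDAA-HFD mice. Of 13 stellate cell and fibroblast markers 2 were higher, Tagln and Vipr1 (median 0.01), beside 3.65% of all genes. Of 14 tested macrophage markers 1 was lower, Fcer1g (median -0.12), beside 1.98% of all genes. Of 6 tested neutrophil markers 0 passed (median -0.11). Beyond the correlations with some of these lists given below, the part of these cell types in the Gucy2c values was not tested. The calls for Fabp2 and Aqp1 were lost with the 5 mice above left out (adjusted p 0.0856 and 0.0650 in edgeR), at fold changes of 0.28 ± 0.08 and 0.23 ± 0.06, and with the immediate early covariate (0.206 and 0.437), at 0.36 ± 0.12 and 0.19 ± 0.10 (log2 ± SE).

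The transcription factors reported at the Gucy2c promoter did not pass the test either. Hnf4a, the hepatocyte factor, was 555, 640 and 726 CPM in the lowest, median and highest BLT1i mouse, against 598, 620 and 657 CPM in the CDAA-HFD mice, with a log2 fold change of 0.02 ± 0.05 (SE, adjusted p 0.860 in edgeR). The BLT1i mice had the wider spread, reaching both above and below the CDAA-HFD mice. Gata6, a zinc finger factor, differed by -0.12 ± 0.05 (log2 ± SE, adjusted p 0.156 in edgeR). The intestinal factors Cdx1 and Cdx2 had at most 2 reads in any group.

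Of the 5 protein-coding genes nearest to Gucy2c on each side in the GENCODE M21 order, 6 were tested and 1 passed, beside 5.63% of all genes. This was Plbd1, a phospholipase B-like gene, the nearest neighbour past the 3′ end of Gucy2c and on the same strand. Plbd1 averaged 67.7 ± 3.24 CPM in BLT1i mice and 55.9 ± 5.61 CPM in CDAA-HFD mice, a log2 fold change of 0.28 ± 0.05 (SE, adjusted p 0.000672 in edgeR). Its fold was far smaller than that of Gucy2c. On the other side, Hist4h4 (-0.18 ± 0.12), H2afj (-0.06 ± 0.05), Wbp11 (0.05 ± 0.03) and BC049715 (-0.20 ± 0.19), and beyond Plbd1 the gene Atf7ip (-0.06 ± 0.03), did not pass. Hist4h4 passed when CDAA-HFD mouse 36 was left out (-0.27, adjusted p 0.0126). E330021D16Rik, Gm8994, Grin2b and Smco3 had 14 reads or fewer in either group.

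Gucy2c was then set against 2 programmes of hepatocyte genes across the mice of each group. CAR and PXR are nuclear receptors for foreign compounds, and induce cytochromes P450, conjugating enzymes and transporters. PPAR-alpha is a nuclear receptor for fatty acids and induces the enzymes of their oxidation. In BLT1i mice 15 of 30 tested CAR and PXR targets were higher, 0 were lower and 15 did not pass (median log2 fold change 0.48). Of 43 tested PPAR-alpha targets, 36 were higher and 1 was lower, Ucp2 (median 0.44), beside 3.65% of all genes higher and 1.98% lower. Since Gucy2c and many of these genes differ between the groups, a correlation over all 20 mice would repeat that difference, and each group was examined alone. The family held 38 relations, 19 in each group, over 10 mice each, with permutation tests over mice. The mice of a group shared no library, but in CDAA-HFD mice the Gucy2c values rest on 2 to 13 reads each. None of the 38 passed Benjamini-Hochberg adjustment, by Pearson's r (smallest adjusted p 0.0958) or Spearman's rho (smallest 0.239). Without adjustment 3 had p under 0.05 by r and 2 by rho.

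The mean log2 level of the CAR and PXR targets had a lowest, median and highest value of 6.63, 6.73 and 6.95 in BLT1i mice, against 5.82, 6.11 and 6.47 in CDAA-HFD mice, so that the groups did not overlap. Within BLT1i mice, its correlation with Gucy2c was r = 0.31 (permutation p 0.391, adjusted 0.847) and rho = 0.08 (p 0.839, adjusted 0.938). It was 0.35 without mice 76 and 79, the farthest from the median, and -0.02 without mouse 79 alone. Within CDAA-HFD mice, r was -0.49 (permutation p 0.146, adjusted 0.769) and rho was -0.50 (p 0.146, adjusted 0.781), and r was -0.51 without mice 32 and 36. The sign thus differed between the groups, but neither passed, and the difference between them was not tested. Cyp3a11, the main PXR-induced P450 of mouse liver, had r = 0.42 in BLT1i mice (permutation p 0.223) and -0.45 in CDAA-HFD mice (p 0.198), the second of which turned to 0.12 without mice 38 and 31. Cyp2c29, a CAR target, had r = 0.30 in BLT1i mice and -0.32 in CDAA-HFD mice (permutation p 0.417 and 0.368). Ces2a, also on the list, had r = 0.17 in BLT1i mice and -0.21 in CDAA-HFD mice (permutation p 0.622 and 0.557). Cyp2c55 had the same sign in both groups, with r = -0.07 in BLT1i mice and -0.21 in CDAA-HFD mice (permutation p 0.866 and 0.552). Cyp2b10, the best known CAR target in mouse liver, was itself under the filter, at 0.464 ± 0.224 CPM in BLT1i mice and 0.294 ± 0.313 CPM in CDAA-HFD mice (SD, n = 10 each). The r of Cyp2b10 with Gucy2c was 0.29 in BLT1i mice and -0.03 in CDAA-HFD mice (permutation p 0.423 and 0.935).

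For the PPAR-alpha targets the lowest, median and highest mean log2 levels were 7.005, 7.11 and 7.49 in BLT1i mice, against 6.35, 6.54 and 6.96 in CDAA-HFD mice, again without overlap. Within BLT1i mice, r with Gucy2c was 0.58 (permutation p 0.0871, adjusted 0.551) and rho was 0.27 (p 0.449, adjusted 0.926). This relation rested on mouse 79, which had the highest level of both: r was -0.11 without it and 0.16 without mice 79 and 76. Within CDAA-HFD mice, r was -0.01 (permutation p 0.985, adjusted 0.985) and rho 0.19 (p 0.608, adjusted 0.926), and r was 0.52 without mice 32 and 33. For each single target examined, r in BLT1i mice fell without mouse 79, but not all had a positive r with it. Cyp4a14 and Cyp4a10 had r = 0.43 and 0.20 in BLT1i mice (permutation p 0.214 and 0.585), and -0.19 and -0.43 without mouse 79. Vnn1 had r = -0.05 in BLT1i mice (permutation p 0.883) and -0.58 without mouse 79. In CDAA-HFD mice r was -0.01 for Cyp4a14, -0.24 for Cyp4a10 and -0.11 for Vnn1. Ehhadh, an enzyme of peroxisomal oxidation, had r = 0.61 in BLT1i mice (permutation p 0.0581) and 0.11 in CDAA-HFD mice (p 0.753), and the BLT1i value was 0.11 without mouse 79 and -0.34 without mice 79 and 74. Acot1, an acyl-CoA thioesterase, had r = 0.60 in BLT1i mice (permutation p 0.0680) and -0.03 in CDAA-HFD mice (p 0.930), and the BLT1i value was 0.04 without mouse 79.

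**Figure D4:**
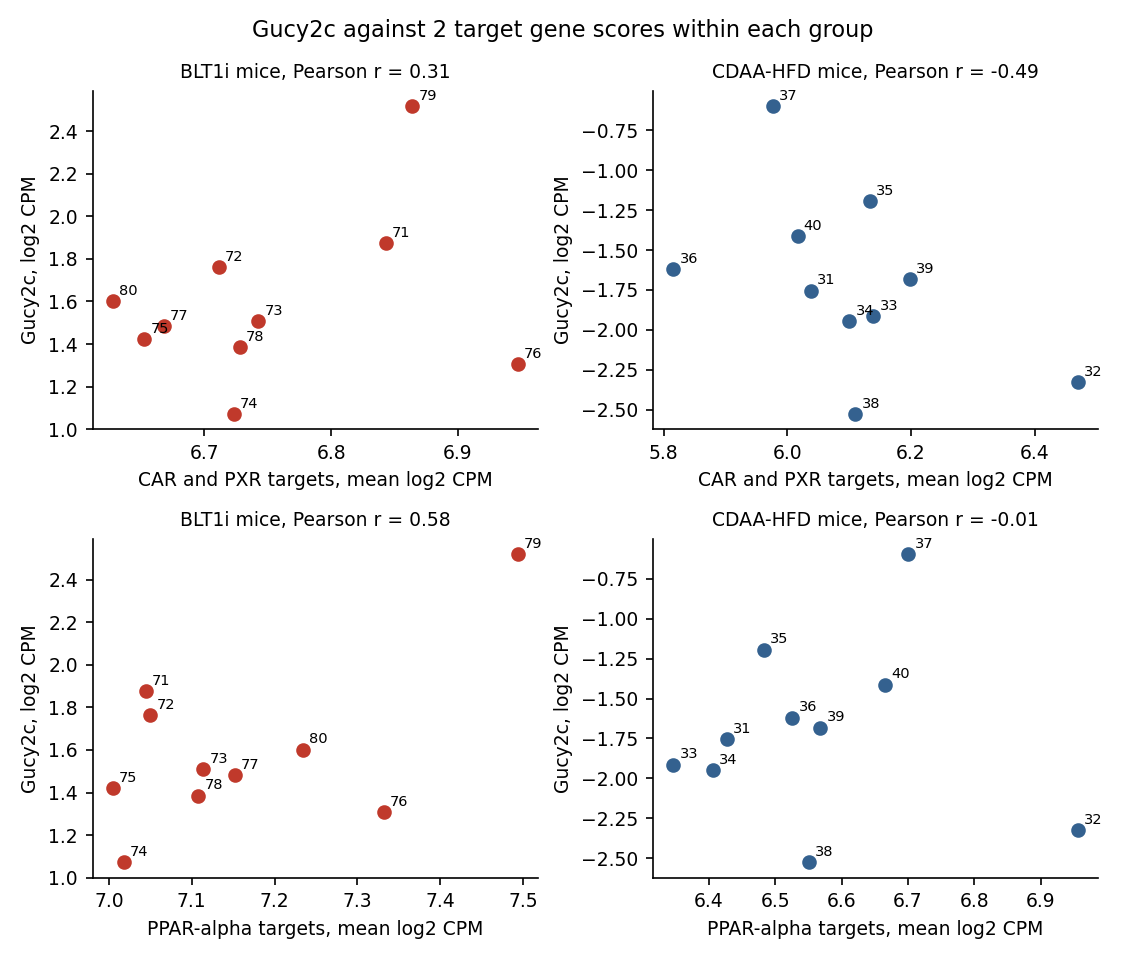
Gucy2c log2 CPM (vertical axes) against the mean log2 CPM of CAR and PXR targets in the upper row and of PPAR-alpha targets in the lower row (horizontal axes), with BLT1i mice on the left and CDAA-HFD mice on the right. Each point is a mouse with its number, each panel has its own axis ranges and gives Pearson's r, and mouse 79 lies at the upper right of the BLT1i panel for PPAR-alpha targets, where r is 0.58 with it and -0.11 without it.

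Set against all genes, the r values of single members spread widely. Over the other 13992 tested genes, r with Gucy2c had a median of 0.01 in BLT1i mice, with 5% of genes under -0.64 and 5% above 0.63, and a median of 0.02 in CDAA-HFD mice, with limits of -0.51 and 0.53. The 43 PPAR-alpha targets had a median r of 0.53 in BLT1i mice, 40 of them (93.0%) positive, beside 51.1% of all tested genes, and of -0.01 in CDAA-HFD mice, 21 (48.8%) positive, beside 51.8% of all tested genes. Without mouse 79 the BLT1i median was 0.02, with 23 positive. The 30 CAR and PXR targets had a median r of 0.15 in BLT1i mice, 21 (70.0%) positive, and of -0.32 in CDAA-HFD mice, 3 of the 30 positive. Without mouse 79 the BLT1i median was 0.0722, with 17 positive. The 12 hepatocyte markers were all positive in BLT1i mice, with a median r of 0.53, and were all positive without mouse 79 too, with a median of 0.50, while 4 of them were positive in CDAA-HFD mice. Members of a programme vary together across mice, so these counts are not independent observations.

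**Figure D5:**
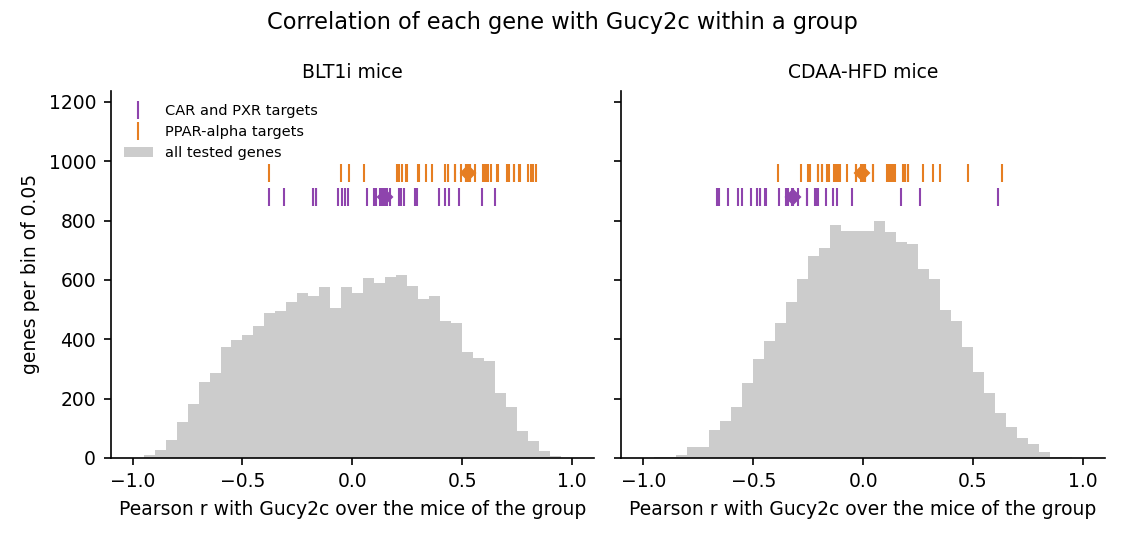
Pearson's r of each gene with Gucy2c (horizontal axis) in BLT1i mice on the left and CDAA-HFD mice on the right. Grey bars count all tested genes per bin, coloured ticks are the members of each list, and diamonds are list medians. PPAR-alpha targets have a median of 0.53 in BLT1i mice and -0.01 in CDAA-HFD mice.

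The largest r among the 38 relations was with Hnf4a in BLT1i mice, at 0.78 (permutation p 0.00252, adjusted 0.0958), with rho 0.77 (p 0.0125, adjusted 0.239). It stayed between 0.72 and 0.87 when any 1 mouse was left out, was 0.74 without mice 75 and 74, and passed the adjustment only without mouse 73 (r = 0.87, adjusted permutation p 0.0274). In CDAA-HFD mice r with Hnf4a was 0.45 (permutation p 0.197) and fell to -0.05 without mice 40 and 37. In BLT1i mice the summary of hepatocyte markers, which includes Hnf4a, had r = 0.69 (permutation p 0.0289, adjusted 0.366) and that of cholangiocyte markers r = -0.66 (p 0.0211, adjusted 0.366). Mouse 79 had the highest hepatocyte sum of its group, 87016 CPM, and the lowest cholangiocyte sum, 909 CPM, together with the highest Gucy2c. Without mouse 79, r was 0.65 with the hepatocyte markers and -0.56 with the cholangiocyte markers. With any 1 BLT1i mouse left out, r ran from 0.58 to 0.74 and from -0.74 to -0.56. In CDAA-HFD mice r was -0.05 with the hepatocyte markers and -0.40 with the cholangiocyte markers. With the gut epithelium markers r was -0.35 in BLT1i mice and -0.02 in CDAA-HFD mice (permutation p 0.333 and 0.960). With the macrophage markers it was -0.17 and 0.22 (permutation p 0.648 and 0.544), and with the immediate early genes -0.12 and 0.37 (permutation p 0.719 and 0.291), in the same order of groups. Beyond these correlations, how far the makeup of each sample enters the Gucy2c values within the BLT1i group was not tested.

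Among 12970 named genes with a mean of at least 1 CPM, those most like Gucy2c over the 10 BLT1i mice were Bend7 (r = 0.94), Tmem120a (0.93), Plin5, which coats lipid droplets in oxidative tissues (0.92), the Mediator subunit gene Med22 (0.92) and the peroxisomal membrane protein gene Pxmp4 (0.91). The most opposite were Ttc25 (-0.97), the desmosomal cadherin gene Dsg2 (-0.94) and the solute carrier Slc12a8 (-0.93). As the extremes of so many genes over 10 mice, these are a description. Without mouse 79 the values were 0.81, 0.81, 0.77, 0.84 and 0.68 for the first group, and -0.90, -0.82 and -0.82 for the second. In CDAA-HFD mice the same genes gave -0.03 for Bend7, -0.60 for Tmem120a, 0.35 for Plin5, 0.11 for Med22, -0.05 for Pxmp4, -0.20 for Ttc25, -0.37 for Dsg2 and 0.11 for Slc12a8. None of the 8 passed the test between the groups, with Ttc25 the nearest at -0.46 ± 0.14 (log2 ± SE, adjusted p 0.0612 in edgeR).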

How the data were processed

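Liver RNA of 20 mice was sequenced. Per the labels, 40 samples were listed, 2 lanes per mouse, from a stranded total RNA kit with ribosomal RNA removed, while their molecule field says polyA RNA. Each mouse had 1 column, so the animal was the replicate (n = 10 per group). The aligner, the counting program and the merging of lanes: not given in the sources used here. GRCm39 was the build, per the submitters' processing notes. For each protein-coding gene the authors deposited a raw count, the unit used throughout. They also deposited a table the file name calls FPKM, which holds whole numbers only and was therefore treated as a score. In it 43.3% of values are 0, and it entered no test. Symbols were found for 21457 of 21500 gene IDs.

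The members and lists were chosen with earlier results of these data known. Counts were scaled by TMM factors (0.9608 to 1.0237 in BLT1i mice, 0.9702 to 1.0505 in CDAA-HFD mice), filtered with filterByExpr and tested with edgeR 4.0.16 in R 4.3.3 (robust quasi-likelihood F-test, two-sided, Benjamini-Hochberg over 13993 genes, threshold 0.05). In counts simulated for 13956 genes of this comparison, the test recovered 90 of 100 genes changed by a log2 of 0.5 and 97 of 100 changed by 1, and 5 of its 192 calls were false. The changed genes had a mean of at least 5 reads, and counts were drawn independently for each gene and mouse. Changes smaller than a log2 of 0.5 were not simulated, so recovery of such changes is not known. Correlations used log2 CPM with a prior count of 2, and two-sided permutation tests with 100000 resamples (Python 3.11.15, scipy 1.17.1). GENCODE M21, on another build, gave only exon length, gene order, strand and the comparison of 100-base windows. Named genes were the pathway members, the 10 neighbours, the 12 genes of the correlation family, the 5 next largest rises and the genes at both ends of the likeness ranking; the list members and markers that passed were also named, as were Slc9a3, Slc26a3 and Pde6c, singled out after their values were seen.

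Alternatives were RLE and upper-quartile scaling, library totals alone, no filter on low counts, at least 1 CPM required in 10 mice, DESeq2 1.42.0, an immediate early covariate, prior counts of 0.5 and 5, each mouse left out, and the 2 farthest mice left out of each correlation.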

Additional observations from a re-analysis of the deposited data

Results flagged for a closer look

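Of 28 groups of values examined, 2 had a mouse far from the others of its group, where chance gives about 1 in 20. Gucy2c itself was 1 of them. BLT1i mouse 79 had 5.64 CPM, against 3.58 CPM in the next highest mouse of the group, a gap of 0.569 of the whole range. The second was the mean log2 level of immediate early genes, 6.22 in BLT1i mouse 75 against 5.89 in the next highest BLT1i mouse, a gap of 0.467 of the range. The deposited table of FPKM values holds whole numbers only and entered no comparison. In it Gucy2c was 1 in BLT1i mouse 79 and 0 in all other mice of both groups. A 0 there does not mean that the RNA was absent: every BLT1i mouse had at least 50 reads, and the group averaged 0.770 CPM per kilobase.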

How the results depend on the processing

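The log2 fold change of Gucy2c kept its direction and size under every alternative run: 3.48 to 3.84 with any 1 mouse left out, 3.51 with the immediate early covariate, 3.59 with library totals alone, 3.65 with DESeq2, and 3.41 without mice 34, 38, 74, 76 and 79, an alternative chosen after seeing the data. The count of genes past the threshold, 788, was 92 with the covariate, 255 without those 5 mice, 565 to 889 with any 1 mouse left out, and 1107 with DESeq2. With library totals alone, 391 were higher and 540 lower, against 511 and 277. The lower count was 421 with DESeq2, 168 without mouse 79 and 171 without mouse 33. Of the 39 cGMP pathway genes, 0 passed with the covariate and 2 to 3 with any 1 mouse left out, and 1 to 2 neighbours passed with any 1 mouse left out. With any 1 mouse left out, 0 to 1 of the 38 correlations passed.

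Fold changes near 0 changed sign: that of Hnf4a was -0.00996 with library totals alone and ran from -0.000325 to 0.0408 with any 1 mouse left out, and that of Gucy1a1 ran from -0.0474 to 0.0138. In BLT1i mice, r with any 1 mouse left out ran from -0.0187 to 0.67 for CAR and PXR targets, -0.11 to 0.77 for PPAR-alpha targets and -0.0498 to 0.44 for Cyp2c29, and r with Ehhadh was -0.34 without the 2 farthest mice. In CDAA-HFD mice, r with PPAR-alpha targets was 0.0304 with library totals alone, 0.0258 with a prior count of 5, 0.52 without the 2 farthest mice and -0.29 to 0.53 with any 1 left out. That with hepatocyte markers was 0.0258 with library totals alone, 0.11 without the 2 farthest mice and -0.33 to 0.11 with any 1 left out. Without the 2 farthest mice, r was 0.12 with Cyp3a11, 0.47 with Acot1 and -0.0537 with Hnf4a; with any 1 left out it ran from -0.0549 to 0.51 with Ehhadh and -0.26 to 0.48 with Acot1. The cause of these changes was not tested. The 2 to 13 Gucy2c reads per CDAA-HFD mouse limit what a correlation in that group can show. No paired analysis was possible because the groups share no mouse numbers.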
